A study of Oreochromis niloticus with 6 samples.

Results

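The HIF prolyl hydroxylases are the enzymes that measure oxygen for the hypoxia-inducible factor (HIF) pathway. Their levels were read from a transcript table of liver from GIFT, a farmed strain of Nile tilapia (Oreochromis niloticus), taking every locus whose gene name starts with egln. The rule used names only, and it found 3 of the 31872 loci, egln1a (MSTRG.3792), egln2 (MSTRG.13500) and egln3 (MSTRG.13905). All 3 passed the filter on low values, an average over the libraries of 1 FPKM or more (a fragment count scaled by transcript length and library size), which left 16423 loci. The table gives no coordinates, and no genome build is stated, so no positions are given.

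Liver RNA was sequenced in 6 libraries, 3 of the hypoxia group (HG, titled HL in the labels) and 3 of the control group (CG, titled CL). The HG fish were kept in tanks whose dissolved oxygen (DO) was lowered with nitrogen gas, to 0.7 to 0.8 mg/L by the labels, and sampled at 96 h. The CG fish were kept at 5 mg/L. The paper states a lower DO for the HG than the labels do, which it took as the median lethal level over 96 h. It describes 3 tanks per group, so the tank was the unit of treatment. Both groups were farmed fish of the same strain, and the sources used here do not state if RNA was pooled over fish, so the p-values measure the spread between these libraries. HG and CG name the libraries by their labels throughout.

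Each prolyl hydroxylase adds a hydroxyl group to prolines of the HIF alpha subunits, using molecular oxygen, 2-oxoglutarate and iron. The hydroxylated subunit is bound by the VHL protein, joined to ubiquitin and degraded, so that HIF builds up when oxygen is short. In mammals egln1 is the main hydroxylase in most tissues, egln2 is found mostly in the nucleus, and egln3 is strongly induced by HIF itself. Transcripts of egln1 and egln3 rise in mammalian cells at low oxygen, a feedback that raises the capacity to degrade HIF.

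All 3 paralogs were lower in the libraries labelled HG, which is the group of low DO, and in none of them did the groups overlap. The fall was largest for egln3, smaller for egln2 and smallest for egln1a. This is the opposite of the direction known for egln1 and egln3 in mammalian cells at low oxygen, a setting unlike the liver of whole fish sampled at 96 h. The cause of the opposite direction was not tested. The groups were taken from the labels. In these bulk libraries fewer cells of a type and less RNA per cell cannot be told apart.

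The paralog egln3 had 2.61, 1.81 and 1.86 FPKM in the HG libraries, against 375.1, 212.1 and 239.1 FPKM in the CG libraries. The lowest CG value was 81.4 times the highest HG value. The mean was 2.09 ± 0.446 FPKM in HG and 275.4 ± 87.3 FPKM in CG (SD, n = 3 each), which is 132-fold lower in HG on the linear scale. On the log2(FPKM + 1) scale the fold change was -6.45 (standard error, SE, 0.28, limma adjusted p = 0.000369). By its mean in CG egln3 was the 251st most abundant of the tested loci, and by its mean in HG the 10429th. Of the 16423 tested loci, 9 had a larger fall on this scale.

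The paralog egln2 had 8.37, 5.25 and 8.30 FPKM in the HG libraries, against 56.0, 89.0 and 87.9 FPKM in the CG libraries. In HG the library HG-2 lay below the other 2, and in CG the library CG-1 did, with no overlap of the groups. The mean was 7.31 ± 1.78 FPKM in HG and 77.6 ± 18.8 FPKM in CG (SD, n = 3 each), 10.6-fold lower in HG. The log2 fold change was -3.24 (SE 0.29, limma adjusted p = 0.00148), and 124 tested loci had a larger fall.

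The paralog egln1a was the least abundant member in every library. It had 0.781, 1.01 and 1.14 FPKM in the HG libraries, against 5.17, 5.32 and 8.31 FPKM in the CG libraries. The mean was 0.975 ± 0.181 FPKM in HG and 6.27 ± 1.77 FPKM in CG (SD, n = 3 each), 6.43-fold lower in HG. The HG mean alone lay below the filter of 1 FPKM, which egln1a passed through its CG level. The log2 fold change was -1.86 (SE 0.23, limma adjusted p = 0.00346). At levels near 1 FPKM the added pseudocount of 1 shrinks the fold change, and with a pseudocount of 0.1 it was -2.55.

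**Figure D1:**
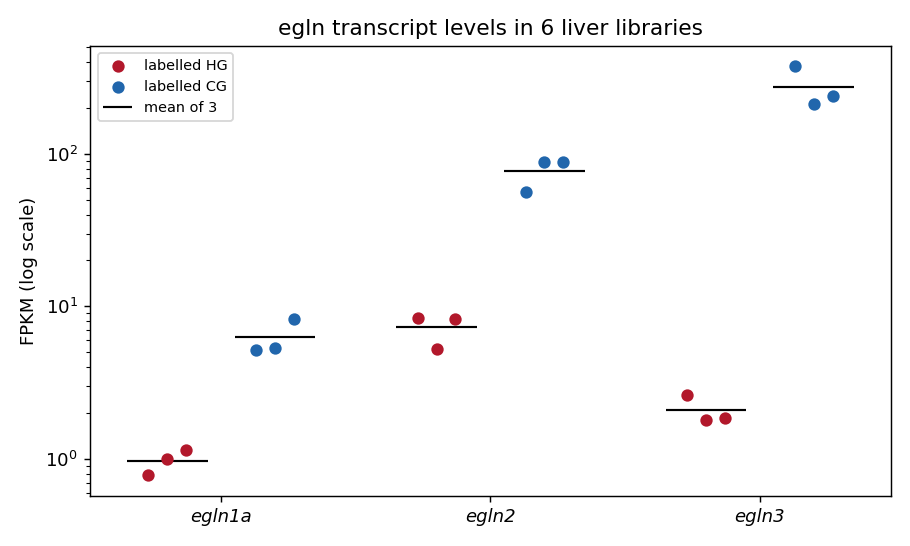
FPKM of egln1a, egln2 and egln3 on a logarithmic axis, with 1 point per library and a line at the mean of the 3 libraries of a group, HG in red and CG in blue. The highest HG value of each paralog lies below its lowest CG value, and for egln3 the 2 are 81.4-fold apart.

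Differences were common among all loci, and the count of members should be read against that. All 3 members passed the test at an adjusted p of 0.05, as did 20.4% of the tested loci. A DE gene here also had to change by 1 or more on the log2 scale. The 3 members were DE genes lower in HG, where 9.54% of the tested loci were DE genes lower in HG and 7.03% were DE genes higher in HG. For egln1a, with an HG mean of 0.975 FPKM, the filter allowed only a higher CG mean, so its direction was fixed. Groups that did not overlap were found at 43.5% of the tested loci, and with HG lower at 27.0%. Over the tested loci the median change was -0.14 on the log2 scale. Median-of-ratios scaling brought it to 0.00, and the fold changes of egln3, egln2 and egln1a were then -6.26, -3.04 and -1.72. A Ballgown-style linear model, which estimates the spread of each locus from that locus alone, gave adjusted p of 0.0686 for egln3, 0.0659 for egln2 and 0.124 for egln1a. The unadjusted p in that model were 0.000430, 0.000353 and 0.00744, by its F test, which has 1 and 3 degrees of freedom.

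Which paralog dominated differed between the groups. Because FPKM is scaled by transcript length, the levels of the paralogs can be set side by side. In HG, egln2 made up 71.2%, 65.1% and 73.5% of the summed egln FPKM of the 3 libraries, whereas in CG it made up 12.8%, 29.1% and 26.2%. In HG, egln3 made up 22.2%, 22.4% and 16.5%, whereas in CG it made up 86.0%, 69.2% and 71.3%. The share of egln1a was small in both groups, 6.64% to 12.5% in HG and 1.19% to 2.48% in CG. The order of levels was egln2, egln3, egln1a in every HG library and egln3, egln2, egln1a in every CG library. In neither group did neighbours in this order overlap.

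The sum of the 3 paralogs was 11.8, 8.07 and 11.3 FPKM in HG, against 436.2, 306.5 and 335.3 FPKM in CG. It was 34.6-fold lower in HG by the means. Most of this difference lay in egln3, since egln2 and egln1a together added 7.31 and 0.975 FPKM to the HG mean and 77.6 and 6.27 FPKM to the CG mean.

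**Figure D2:**
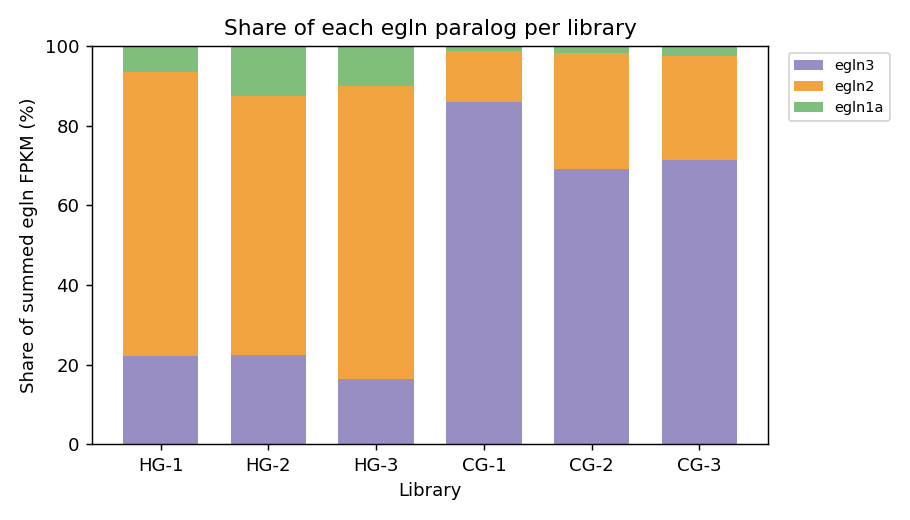
Share of each paralog in the summed egln FPKM of a library, in percent, with 1 stacked bar per library. The egln2 segment fills 65.1% to 73.5% of the HG bars, and the egln3 segment fills 69.2% to 86.0% of the CG bars.

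The falls of the paralogs were compared through the ratio of their levels within each library, which no scaling of a library changes apart from the pseudocount. The log2 ratio of egln3 over egln2, each as FPKM + 1, was -1.41 ± 0.27 in HG and 1.80 ± 0.80 in CG (SD, n = 3 each), a difference of -3.21. Every HG library had egln2 above egln3, and every CG library had egln3 above egln2. The log2 ratio of egln3 over egln1a was 0.64 ± 0.33 in HG and 5.23 ± 0.63 in CG, a difference of -4.59. The log2 ratio of egln2 over egln1a was 2.05 ± 0.38 in HG and 3.43 ± 0.35 in CG, a difference of -1.38. In each of the 3 pairs the groups did not overlap on this scale. Without a pseudocount they did overlap for egln2 over egln1a, with a plain ratio of 10.7 in HG-1 and 10.6 in CG-3. The separation of this pair therefore rests on the pseudocount. The two-sided exact permutation p was 0.1 for each pair, with an adjusted p of 0.1 over the 3 pairs, and 0.1 is the smallest value that 3 libraries against 3 allow. This test therefore cannot pass a threshold of 0.05 with these libraries, and no other test of the ratios was run. The difference between egln2 and egln1a depended on the pseudocount more than the others, and was -0.84 with a pseudocount of 0.1.

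The substrates and partners of the hydroxylases had smaller fold changes. Of the 5 HIF subunit loci, all tested, 1 was lower in HG with an adjusted p under 0.05 and 4 did not pass, where 12.1% of all tested loci were lower by this call and 8.27% higher. The HIF alpha subunits are the proteins that the egln enzymes hydroxylate. For hif1aa (MSTRG.15879) the levels were 8.53, 8.40 and 7.97 FPKM in HG, against 16.9, 13.8 and 7.86 FPKM in CG. The groups overlapped through CG-3, and the log2 fold change was -0.51 (SE 0.29, limma adjusted p = 0.246). The alpha-like gene hif1al (MSTRG.19896) was the most abundant of the list, with 38.9, 35.8 and 32.0 FPKM in HG and 47.4, 37.5 and 70.0 FPKM in CG (log2 fold change -0.48, limma adjusted p = 0.250). For epas1b (MSTRG.1087), a HIF-2 alpha gene, HG-2 stood low at 1.38 FPKM beside 8.26 and 8.19 FPKM in the other HG libraries, against 7.84, 9.11 and 11.3 FPKM in CG (log2 fold change -0.82, limma adjusted p = 0.314).

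The beta subunits pair with the alpha subunits on DNA and are not hydroxylated. For arnt (MSTRG.13654) the levels were 5.06, 5.999 and 5.12 FPKM in HG, against 7.33, 7.02 and 7.21 FPKM in CG (log2 fold change -0.36, limma adjusted p = 0.187). The locus that passed was arnt2 (MSTRG.13156), with 1.37, 4.22 and 3.37 FPKM in HG against 8.46, 8.84 and 6.66 FPKM in CG. Its log2 fold change was -1.24 (SE 0.32, limma adjusted p = 0.0381). This call was lost under 8 of 16 alternatives, among them leaving out CG-1 (adjusted p = 0.106) and HG-1 (adjusted p = 0.0755), and leaving out CG-2, CG-3 or HG-3 (adjusted p = 0.0982, 0.0680 and 0.0773, all from limma).

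The list of the VHL ligase, the asparagine hydroxylase FIH and proteins that bind or degrade the prolyl hydroxylases had 15 loci, of which 14 were tested. Of these, 1 (7.14%) was lower in HG, beside 12.1% of all tested loci, and 13 did not pass. The median log2 fold change was -0.13, close to the -0.14 of all tested loci. The substrate receptor vhl (MSTRG.3967) had 1.44, 2.28 and 2.30 FPKM in HG, against 4.16, 2.22 and 7.41 FPKM in CG (log2 fold change -0.80, limma adjusted p = 0.159). Other parts of the ligase had log2 fold changes of -0.15 for the scaffold cul2, -0.06 and -0.28 for the elongins tceb2 and tceb1a, and -0.89 for the RING protein rbx1 (MSTRG.5650, limma adjusted p = 0.0820). The gene of FIH, hif1an (MSTRG.14742), which also uses oxygen and 2-oxoglutarate and hydroxylates HIF at an asparagine, had 2.36, 0.650 and 0.903 FPKM in HG and 1.91, 1.03 and 1.93 FPKM in CG, with overlap of the groups (limma adjusted p = 0.646). The transmembrane prolyl hydroxylase p4htm was too low to be tested, with 0 FPKM in all HG libraries and at most 0.025 FPKM in CG.

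Among the proteins known in mammals to act on the prolyl hydroxylases, the chaperone fkbp8 (MSTRG.14091) was the locus that passed, with 8.43, 7.51 and 10.8 FPKM in HG against 23.3, 20.7 and 13.7 FPKM in CG. Its log2 fold change was -1.01 (SE 0.27, limma adjusted p = 0.0396). The call was lost under 10 of 17 alternatives, among them scaling by median of ratios (adjusted p = 0.0584) and leaving out CG-1, CG-2, HG-1, HG-2 or HG-3 (limma adjusted p = 0.0967, 0.1, 0.119, 0.103 and 0.0619). The ubiquitin ligases siah1 (MSTRG.22284) and siah2l (MSTRG.25013), whose mammalian counterparts target EGLN2 and EGLN3 for degradation, had HG minus CG differences of -0.31 and 0.59 on the log2 scale (limma adjusted p = 0.297 and 0.0956). For siah2l the groups did not overlap, with 2.92, 2.59 and 3.63 FPKM in HG and 1.73, 2.13 and 1.26 FPKM in CG. The other loci of this list, ptges3a, os9, wdr83, LIMD1 and ube2d1a, had log2 fold changes of 0.48, 0.41, -0.11, 0.13 and 0.18, and their adjusted p from limma lay between 0.262 and 0.727.

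**Figure D3:**
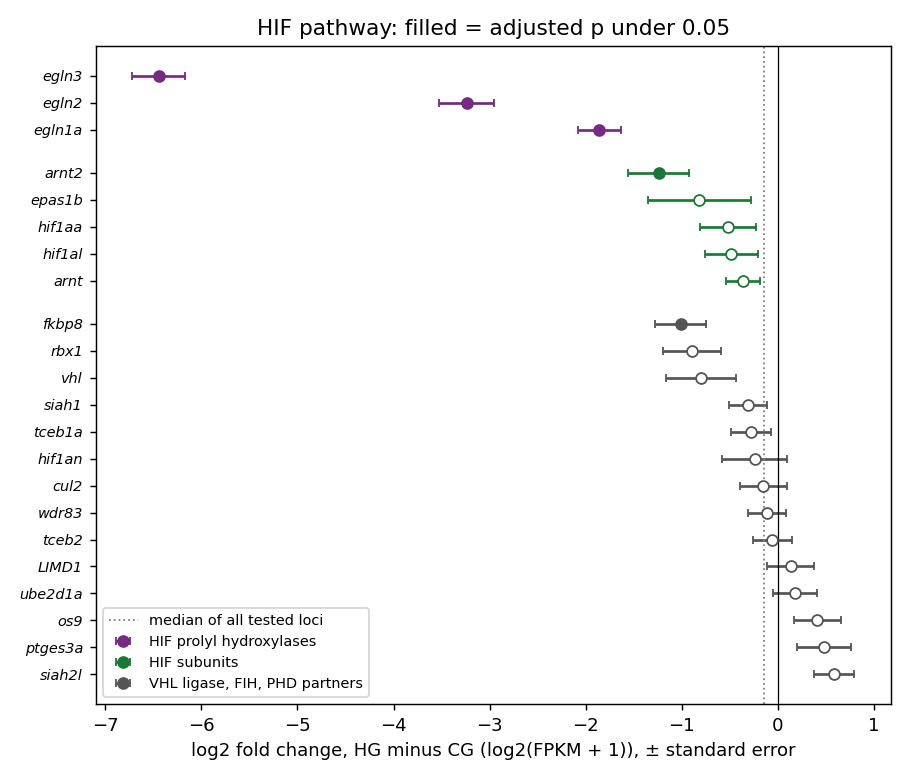
Log2 fold change of HG minus CG on the log2(FPKM + 1) scale with its standard error, for the egln paralogs (purple), the HIF subunits (green) and the VHL ligase, FIH and hydroxylase partners (grey), filled where the adjusted p from limma was under 0.05 and with a dotted line at the median of all tested loci. The 3 egln paralogs lie at -6.45, -3.24 and -1.86, and the next lowest locus, arnt2, at -1.24.

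Genes known as targets of HIF were lower in HG more often than they were higher. The list held 75 loci, of which 55 were tested. Some gene names, such as igfbp1a, igfbp1b, mxi1 and tfr1b, are carried by several loci, so the counts are of loci and not of independent genes. In HG, 40 fell, 3 rose and 12 missed the threshold, a share of 72.7% lower where 12.1% of all tested loci were lower, with a median log2 fold change of -1.70 beside -0.14. The list was drawn up with results of these libraries known, so it is not independent evidence of a direction. With each library left out in turn, 30 to 37 targets were lower, and in the Ballgown-style model no target passed. The targets with the smallest adjusted p were ddit4 (MSTRG.14744), which restrains the growth kinase mTOR, p4ha1b (MSTRG.951), a collagen prolyl hydroxylase, igfbp1b (MSTRG.589), which binds insulin-like growth factors, and aldocb (MSTRG.9339), a glycolytic aldolase. Their log2 fold changes were -8.84, -4.64, -6.02 and -5.01. For ddit4 the HG libraries had 0.536, 0.295 and 0.0217 FPKM, against 589, 492 and 676 FPKM in CG, so that its fall exceeded that of egln3. On this scale the fall of egln3 exceeded that of the other 3. Both ddit4 and p4ha1b averaged below 1 FPKM in HG and passed the filter through their CG levels. So did pfkfb3, epoa and p4ha2, with HG means of 0.472, 0.510 and 0.536 FPKM. The other lower targets below 1 FPKM in HG had means of 0.125 to 0.982 FPKM there. They were hk2 (MSTRG.11187), mxi1 (MSTRG.12687), hk1 (MSTRG.17031), each igfbp1a locus, pfkfb4b, bhlhe40 (MSTRG.5173), flt1 and stc2b. A locus below 1 FPKM in HG can pass only with a higher CG mean, so the filter fixed its direction. The 3 higher targets averaged above 1 FPKM in both groups. The share of 72.7% includes the loci whose direction was fixed in this way.

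The 3 targets that were higher were pdk1 (MSTRG.9868), a kinase that turns off pyruvate dehydrogenase, with a log2 fold change of 1.23 (limma adjusted p = 0.0112), cox4i2 (MSTRG.20665), a subunit of cytochrome c oxidase, with 1.12 (adjusted p = 0.0382), and the glycolytic mutase pgam1a (MSTRG.14705), with 1.08 (adjusted p = 0.0352). For pdk1 the levels were 7.83, 10.2 and 10.1 FPKM in HG, against 2.96, 4.33 and 3.03 FPKM in CG. The 3 higher targets were 5.45% of the tested targets, beside 8.27% of all tested loci that were higher. With any 1 of the 6 libraries left out, the count of higher targets was 1, which was pdk1. The calls of cox4i2 and pgam1a were lost each time (limma adjusted p of pgam1a up to 0.103 in these fits).

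The egln enzymes belong to the large family of oxygenases that use 2-oxoglutarate and iron, and the other members of this family moved in both directions. Of 63 loci, 51 were tested. The loci p4ha1a, p4ha1b, p4ha2 and jmjd6 are also in the list of HIF targets. The loci hif1an and p4htm are also in the list of the VHL ligase, FIH and hydroxylase partners. In HG, 8 rose (15.7%, beside 8.27% of all tested loci) and 14 fell (27.5%, beside 12.1%), while 29 missed the threshold. Both shares include loci whose direction the filter fixed. Among the lower loci, p4ha1b, p4ha2, kdm7ab and kdm4ab averaged 0.389, 0.536, 0.875 and 0.939 FPKM in HG. Among the higher loci, bbox1, alkbh2 and p3h1 (MSTRG.9074) averaged 0.687, 0.239 and 0.505 FPKM in CG. The median change was -0.32 on the log2 scale. The smallest adjusted p among the lower loci were those of hydroxylases of collagen and other proteins. Beside p4ha1b, which had 0.394, 0.338 and 0.433 FPKM in HG against 29.7, 40.5 and 31.8 FPKM in CG, these included plod1a (MSTRG.17216), a collagen lysyl hydroxylase, with 1.69, 2.21 and 1.42 FPKM in HG against 35.2, 25.5 and 23.1 FPKM in CG. The aspartyl hydroxylase locus ASPH (MSTRG.15152) and jmjd6 (MSTRG.4959), a lysyl hydroxylase of splicing factors, changed by -2.46 and -2.75 on the log2 scale (limma adjusted p = 0.00164 and 0.00204). These 4 were picked by their small adjusted p, and the groups did not overlap for any of them. The same held, with HG lower, for 27.0% of all tested loci. The fall of egln3 was larger than that of each of the 4. Of the other 2 loci with this name, asph (MSTRG.24091) was higher, with a mean of 25.4 FPKM in HG and 11.8 FPKM in CG (limma adjusted p = 0.0217), and asph (MSTRG.24092) had 2.85 FPKM in HG and 0.905 FPKM in CG (limma adjusted p = 0.0799). Named after their values were seen, tet3, which oxidizes methylated cytosine, averaged 1.56 FPKM in HG and 10.9 FPKM in CG, and the histone demethylase kdm3b averaged 2.49 FPKM in HG and 7.82 FPKM in CG, both lower (limma adjusted p = 0.00325 and 0.00471). In the other direction, phyhd1 averaged 10.4 FPKM in HG and 1.68 FPKM in CG (limma adjusted p = 0.00646). Among hydroxylases of collagen, p3h1 (MSTRG.9074) was higher, with 1.94 FPKM in HG and 0.505 FPKM in CG (limma adjusted p = 0.0281). A second p3h1 locus (MSTRG.9075) and p3h3 had log2 fold changes of 0.94 and 1.22 and did not pass (limma adjusted p = 0.0509 and 0.0505). Both p3h1 loci averaged below 1 FPKM in CG and entered the test through their HG levels, as p4ha1b did through its CG level.

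The 2 higher loci with the smallest adjusted p act in lipid metabolism. The locus phyh (MSTRG.18994), a peroxisomal enzyme that oxidizes branched fatty acids, had 201.0, 249 and 185 FPKM in HG against 76.8, 60.7 and 60.0 FPKM in CG, a log2 fold change of 1.67 (SE 0.22, limma adjusted p = 0.00469). The locus bbox1 (MSTRG.13449), which makes carnitine, had 4.10, 3.18 and 3.50 FPKM in HG against 0.770, 0.693 and 0.598 FPKM in CG, a log2 fold change of 1.44 (limma adjusted p = 0.00457). Its CG mean of 0.687 FPKM lay below the filter of 1 FPKM, which bbox1 passed through its HG level. Leaving out HG-1 reduced the list to 5 higher and 8 lower. Without HG-2 the counts were 7 higher and 9 lower, and without HG-3 they were 5 higher and 9 lower.

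**Figure D4:**
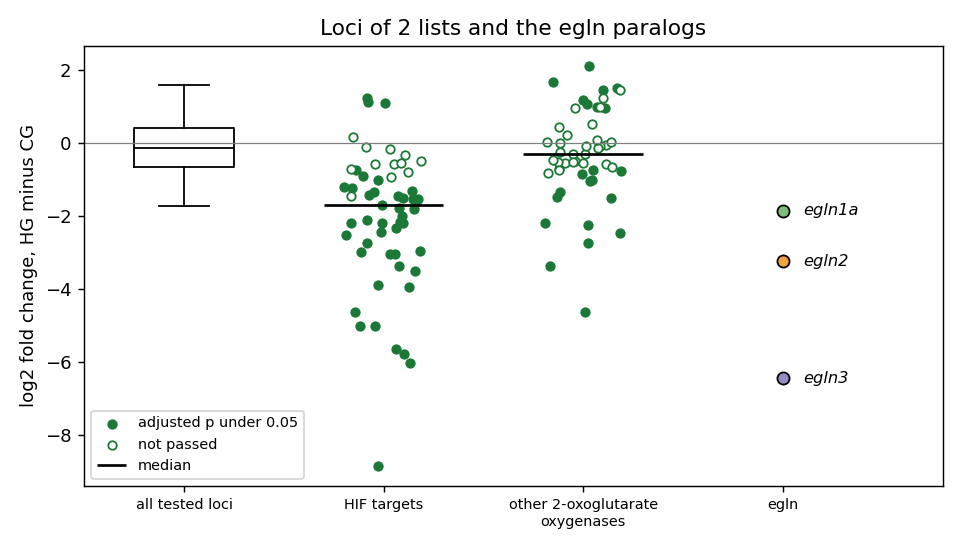
Log2 fold changes of HG minus CG for all tested loci (box from the lower to the upper quartile, line at the median, whiskers at the 5th and 95th percentiles), for the tested HIF targets, for the tested 2-oxoglutarate oxygenases outside the egln family, and for the egln paralogs. Each point is a locus, filled where the adjusted p was under 0.05. The medians lie at -1.70 for HIF targets and -0.32 for the oxygenases, and egln3 at -6.45 lies below all HIF targets drawn except ddit4.

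The loci whose profile over the 6 libraries came closest to that of each paralog were found by the root mean square distance between log2(FPKM + 1) values centred on their mean, among 10333 other tested loci with a gene symbol. With 6 points in 2 groups the distance follows the size of the group difference closely, and it is given as a description. Closest to egln3 were igfbp1b (MSTRG.589), at a distance of 0.35, cdkn1cb (MSTRG.6508), a brake on cell division, the locus MSTRG.16776, ero1a (MSTRG.17308), an oxidase that helps disulfide bonds form in the endoplasmic reticulum, and a second igfbp1b locus (MSTRG.590), at 0.49. The 2 igfbp1b loci carry 1 gene name and may share reads. The mean of ero1a was 4.44 FPKM in HG and 278.4 FPKM in CG, against 2.09 and 275.4 FPKM for egln3. Closest to egln2 were tor3a (MSTRG.2365), slc1a4 (MSTRG.15054), an amino acid transporter, higd1a (MSTRG.532), a mitochondrial protein and HIF target in mammals, ppp1r3da (MSTRG.7371) and the lipid transporter abca1b (MSTRG.5962), at distances of 0.22 to 0.34. Closest to egln1a were si:dkeyp-69e1.8 (1 of many) (MSTRG.10490), dmxl2 (MSTRG.22489), si:dkey-157g16.6 (MSTRG.10815), adob (MSTRG.18966) and chmp4c (MSTRG.1830), at distances of 0.12 to 0.15. The paralogs were farther from each other than from these loci, which were picked as the nearest. Their distances were 0.75 between egln1a and egln2, 1.68 between egln2 and egln3 and 2.33 between egln1a and egln3. The Pearson correlations between paralogs over the 6 libraries were 0.964 to 0.973, and these too follow the group difference.

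The libraries were similar in scale. Their FPKM added up to 459912 to 493870, and correlations over the tested loci were 0.868 to 0.918 among HG libraries, 0.873 to 0.901 among CG libraries and 0.661 to 0.785 between the groups. These are correlations across genes, which are not independent replicates. The lowest FPKM values, which stand for few fragments, put the relative depth of the libraries within 1.41 times of HG-1, the shallowest. The number of reads behind a value is not in the table, so no counting error can be given for the low HG values of egln1a and egln3.

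Markers of cell types were summed per library, as a measure of the makeup of the tissue. The counts of markers called stand beside 8.27% of all tested loci that were higher in HG and 12.1% that were lower. Hepatocyte markers were high in both groups, at 47907 to 58205 FPKM in HG and 40747 to 54351 FPKM in CG, with 5 of 23 higher and 2 lower in HG. Within this sum apoa1a averaged 21067 FPKM in HG and 8277 FPKM in CG, while hpx averaged 7372 FPKM in HG and 20940 FPKM in CG. The similar sums therefore do not mean that each marker was steady. Some of the 23 hepatocyte loci share a gene name, such as fetub, whose loci were called in both directions. These counts are of loci and not of independent genes. Markers of the exocrine pancreas, which in many fish lies within the liver, summed to 264.9 to 1458 FPKM in HG and 2665 to 5567 FPKM in CG, with 7 of 8 tested loci lower. Endothelial markers summed to 24.5 to 29.5 FPKM in HG and 50.9 to 66.7 FPKM in CG, with 5 of 8 lower, and bile duct markers to 214.5 to 287.0 FPKM in HG and 604.4 to 700.0 FPKM in CG, with 4 of 5 lower. The part of these cells in the egln results was not tested. Macrophage and neutrophil markers summed to 1822 to 3171 FPKM in HG and 1865 to 2198 FPKM in CG, with 5 of 16 lower, and the 3 erythrocyte markers to 19.2 to 35.0 FPKM in HG and 8.73 to 32.2 FPKM in CG, with overlap of the groups. In mammals egln3 is abundant in muscle. Skeletal muscle markers other than myoglobin summed to 2.34 to 4.12 FPKM in HG and 2.46 to 3.63 FPKM in CG over 10 loci. Myoglobin itself (Mb, MSTRG.10471) was lower in HG, with 73.9, 40.0 and 63.9 FPKM against 2018, 2834 and 1869 FPKM in CG.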

How the data were processed

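The authors sequenced poly(A) RNA, assembled transcripts with StringTie and estimated levels as FPKM. The submitters' processing notes also name HISAT. Versions and the genome build are not given in the sources used here. The deposited FPKM of each locus in 6 libraries were used as deposited, through 6 columns, and 0 columns of sample values were left aside. Read counts were not used here.

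Members and gene lists were chosen with earlier results of these data known. Values were transformed to log2(FPKM + 1), loci averaging 1 FPKM or more were tested, and the groups were compared in R 4.3.3 using limma 3.58.1 and a variance trend, two-sided, with Benjamini-Hochberg adjustment over all 16423 loci. The study used Ballgown, so a Ballgown-style model (library size as covariate) was an alternative. Others were pseudocounts of 0.1 and 0.5, no minimum or a mean of at least 10 FPKM, 3 other scalings, limma with robust estimation or without trend, a replicate block, and leaving out each library, 17 in all. The test was run on simulated data in which few loci changed, all of them more abundant than egln1a. That setting does not cover egln1a or the share of loci called here. Ratios of paralogs were compared by an exact permutation test in Python 3.11.15 with scipy 1.17.1.

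Named were all egln loci, all tested loci of the lists HIF subunits and VHL ligase, FIH and PHD partners, in the other 2 lists up to 4 loci with the smallest adjusted p in the main direction and 2 in the other, and the 5 nearest profiles of each paralog. The loci cox4i2, tet3, kdm3b, phyhd1, both p3h1 loci, p3h3, both asph loci in lower case and p4htm were named after their values were seen. So were myoglobin, apoa1a, hpx, fetub, igfbp1a, mxi1, tfr1b, pfkfb3, epoa, p4ha2, the flanking genes and MSTRG.7359. The same holds for p4ha1a, kdm7ab, kdm4ab, alkbh2, hk1, hk2, pfkfb4b, bhlhe40, flt1 and stc2b.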

Additional observations from a re-analysis of the deposited data

How the results depend on the processing

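The fold changes of egln1a, egln2 and egln3 kept their direction under every alternative that could be run, and an adjusted p under 0.05 under all but the Ballgown-style linear model, where they were -1.85, -3.57 and -6.37. Outside that model the fold changes lay between -2.55 and -1.67 for egln1a over 15 alternatives, between -3.45 and -3.04 for egln2 over 16, and between -6.95 and -6.20 for egln3 over 16. A mean of at least 10 FPKM gave no value for egln1a, which lies below it. Over all loci, 1155 DE genes were higher and 1567 lower. The Ballgown-style model gave 2 higher and 0 lower, with 3583 loci at an unadjusted p under 0.05, and the minimum of 10 FPKM gave 529 and 614, where fewer loci were tested. With a library left out there were 781 to 958 higher and 802 to 1394 lower, the fewest lower without HG-1. Scaling by median of ratios gave 1473 higher and 1237 lower, upper quartile scaling 1440 and 1267, and quantile normalization 1408 and 1271. The cause was not tested. No lower HIF target and no other oxygenase of the lists passed in the Ballgown-style model. The replicate numbers did not pair the libraries. Deviations from the group means correlated at 0.04, -0.10 and -0.08 between libraries of the same number. With the replicate block 867 genes were higher and 1093 lower, and egln3 had a log2 fold change of -6.45 (adjusted p = 0.00440), egln2 of -3.24 (adjusted p = 0.00935) and egln1a of -1.86 (limma adjusted p = 0.0134). With the block, 36 HIF targets were lower and 1 higher, and arnt2, fkbp8 and pgam1a no longer passed. After median-of-ratios scaling siah2l passed (adjusted p = 0.0485), and with the minimum of 10 FPKM rbx1 did (limma adjusted p = 0.0486). With a library left out, the mean share of egln2 was 68.2% to 72.3% in HG and 19.5% to 27.6% in CG.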

Other observations

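The table assigns the same KEGG orthology entry as the egln genes to 1 further locus, MSTRG.7359, which joins the gene names zymnd12 and emp3b and has no egln name. It had 0.0335, 0.164 and 0.227 FPKM in HG, against 4.37, 1.79 and 4.55 FPKM in CG, with no overlap of the groups. Its log2 fold change was -1.94 (SE 0.33, limma adjusted p = 0.00988). The HG mean of 0.141 FPKM lay below the filter of 1 FPKM, which this locus passed through its CG level.

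The genes that flank the paralogs in the RefSeq annotation of the assembly O_niloticus_UMD_NMBU were looked up by symbol, 3 on each side. Of these 18 genes, 8 matched a single locus of the table and 6 of those were tested. The locus tsnax (MSTRG.3793), which encodes an RNA-binding partner of translin and lies next to egln1a, was the 1 of 6 that passed, where 20.4% of all tested loci did. It had 2.39, 3.98 and 3.70 FPKM in HG against 30.9, 9.66 and 25.2 FPKM in CG. Its log2 fold change was -2.27 (SE 0.43, limma adjusted p = 0.0143). On the other side of egln1a, nid1a (MSTRG.3790) had 5.96, 3.69 and 6.68 FPKM in HG and 16.6, 7.48 and 13.4 FPKM in CG (log2 fold change -1.04, limma adjusted p = 0.0736), and disc1, beyond tsnax, had overlapping groups. The tested neighbours of egln2, tmem160 (MSTRG.13498) and arhgap35a (MSTRG.13497), had HG minus CG differences of 0.29 and 0.64 on the log2 scale (limma adjusted p = 0.346 and 0.0823). The tested neighbour of egln3, eapp (MSTRG.13908), had a log2 fold change of -0.46 (limma adjusted p = 0.146).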
